A study of Homo sapiens with 19 samples.

Results

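MDA-MB-231 cells that had received STAT3 siRNA and then a lentivirus carrying HMGN5 were compared with cells that had received control siRNA and an empty vector, which gives the net state after both manipulations. Members were chosen by the treatment in the sample titles, and are the 3 siSTAT3+HMGN5 libraries and the 3 Ctrl+Vector libraries, 6 of the 19 samples of the series. MDA-MB-231 is an established human line of triple-negative breast cancer. The siSTAT3+HMGN5 cells received STAT3 siRNA and lentiviral HMGN5, the siSTAT3+Vector cells (3 libraries) STAT3 siRNA and the control vector, and the Ctrl+Vector cells control siRNA and the control vector, each with siRNA at 30 nM. Every group of this experiment was therefore both transfected and infected, and no group received HMGN5 with control siRNA. The promoter that drives HMGN5, the siRNA sequences and the time between steps are not stated in the labels. The remaining RNA-seq libraries, 8 from cells without virus, are set beside the result where they bear on it, and the 2 H3K27ac samples are not analysed here.

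STAT3 is a transcription factor that is phosphorylated by JAK kinases below cytokine receptors, enters the nucleus and binds the regulatory regions of genes for survival, growth and inflammation. HMGN5 belongs to the HMGN proteins, small nuclear proteins that bind nucleosomes, and loosens chromatin by opposing linker histone H1. In breast cancer cells STAT3 is often active without added cytokine, and the design asks what ectopic HMGN5 does to the transcriptome of STAT3-depleted cells.

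Poly(A) RNA was measured as estimated reads per Ensembl transcript, 22691521 to 22862152 per siSTAT3+HMGN5 library and 22500086 to 23047081 over the 9 libraries of the experiment. In the siSTAT3+HMGN5 libraries 84163 to 85281 of the 175775 listed transcripts had at least 1 read, and 3 reads corresponded to 0.131 to 0.132 CPM (reads relative to library size, scaled by TMM where values are compared). No file here ties these transcript IDs to genes, so the levels of STAT3 and HMGN5 and the markers of the cell line were not checked, gene lists were not counted, and 2 rising and 2 falling transcripts are named by ID. No 2 libraries agreed within counting noise: the mean chi-square per transcript lay between 2.53 and 3.4 among siSTAT3+HMGN5 replicates and between 3.32 and 6.26 among Ctrl+Vector replicates, and each library entered as its own replicate. Whether replicates are separate cultures is not said in the labels, so the p-values rest on a spread between libraries that may be technical.

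The 3 siSTAT3+HMGN5 libraries lay close together and far from the 3 Ctrl+Vector libraries. Over the 15664 transcripts that averaged 10 CPM or more, 2 siSTAT3+HMGN5 libraries differed by a median absolute log2 difference of 0.127 to 0.15, and 2 Ctrl+Vector libraries by 0.135 to 0.181. Between the groups, all 9 pairs of libraries differed by 0.49 to 0.512. More than a 2-fold difference was seen for 19.9% to 21.2% of these transcripts between the groups, against 3.47% to 3.62% within siSTAT3+HMGN5 and 3.58% to 4.51% within Ctrl+Vector. The siSTAT3+HMGN5 libraries lay nearer to siSTAT3+Vector, at 0.238 to 0.268, which is still above every distance within a group.

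**Figure D1:**
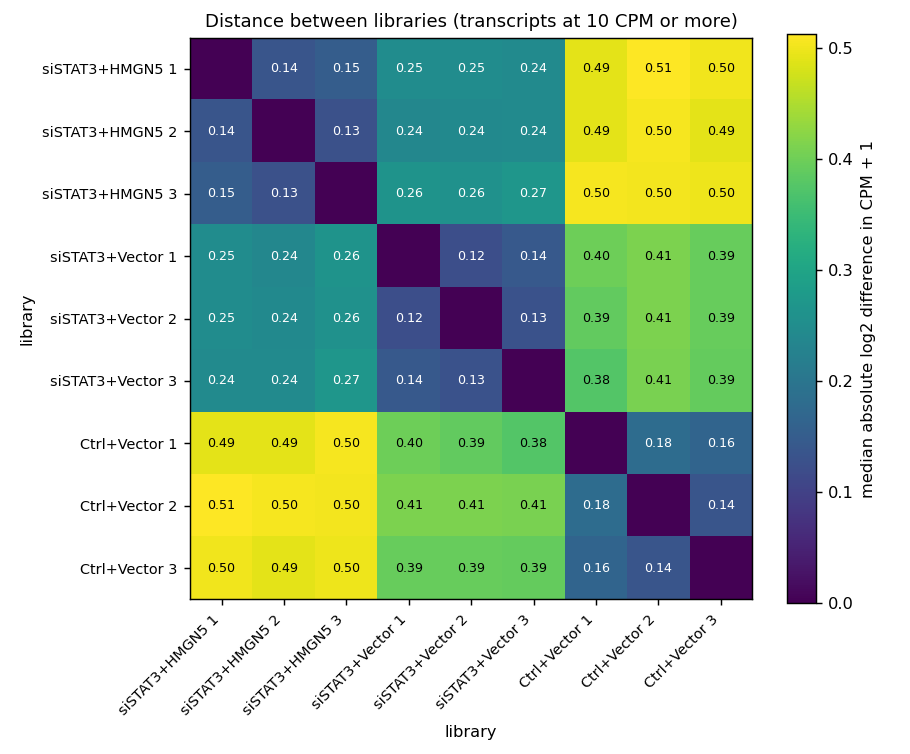
Median absolute log2 difference in CPM + 1 between each pair of the 9 lentiviral libraries, over 15664 transcripts averaging 10 CPM or more; rows and columns are libraries and the colour scale runs from 0. The 9 squares that pair siSTAT3+HMGN5 with Ctrl+Vector hold the largest values, 0.49 to 0.512, and squares within a group lie between 0.122 and 0.181.

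In siSTAT3+HMGN5, 7592 of the 69768 transcripts tested rose and 7987 fell relative to Ctrl+Vector (quasi-likelihood test of edgeR at an adjusted p under 0.05, by Benjamini-Hochberg). That is 10.9% and 11.4% of the transcripts tested, 22.3% in all. The median log2 fold change over all tested was 0.015, a value that the TMM scaling holds near 0. Called transcripts had a median log2 fold change of 0.92 where higher and of -1.15 where lower. A change of at least 2-fold was found for 3445 higher (4.94% of all tested) and 4671 lower transcripts (6.7%), and of at least 4-fold for 940 higher (1.35%) and 1482 lower ones (2.12%). Lower transcripts outnumbered higher ones at both sizes, a balance that was not tested. No overlap between the 3 libraries of each group was seen for 30019 transcripts (43% of all tested), 14718 higher (21.1%) and 15301 lower (21.9%) in siSTAT3+HMGN5.

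These transcripts held a large part of the estimated reads. The transcripts called higher took 36.4%, 36.2% and 36.4% of the estimated reads in siSTAT3+HMGN5 replicates 1, 2 and 3, against 22%, 21.8% and 21.8% in the Ctrl+Vector replicates. Those called lower took 18.6%, 18.6% and 18.6% in siSTAT3+HMGN5, against 33.9%, 34.1% and 33.9% in Ctrl+Vector. The siSTAT3+Vector libraries held 31.45% to 31.5% of their reads on the first set and 22.62% to 22.7% on the second. The sets were chosen on these libraries, so the shares describe what part of the estimated reads the calls cover and are not a test.

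Abundant transcripts were called more often than rare ones. From a mean level of 100 CPM upwards, 36.4% of 1620 transcripts rose and 30.3% fell, and the called ones had a median absolute log2 fold change of 0.58. Of 14044 between 10 and 100 CPM, 25.8% were higher and 23.7% lower (median 0.78 among those called), and of 34364 between 1 and 10 CPM, 8.7% were higher and 10.5% lower (median 1.29). Below 1 CPM 4.8% of 19740 were called, with a median of 3.24 among the called. Higher transcripts were thus more frequent than lower ones from 10 CPM upwards and less frequent below it, a split that was not tested.

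The balance of directions also differed between length classes, which was not tested. Among transcripts between 10 and 100 CPM, 24.5% of the 3887 with 4000 bases or more were higher and 28.3% lower, whereas in the 2939 from 500 to under 1000 bases 26.9% were higher and 20.5% lower. Median log2 fold changes of these classes were 0.0026 and 0.10, and that of the class under 500 bases was 0.021. The share higher lay between 24.5% and 26.9% in every length class. The share lower was 20.6%, 20.5%, 21.5%, 23.6% and 28.3% from the shortest class to the longest. Reads on transcripts under 300 bases made up 1.21% to 1.3% of siSTAT3+HMGN5 libraries and 1.16% to 1.21% of Ctrl+Vector libraries, and the part of this in the length pattern was not tested.

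**Figure D2:**
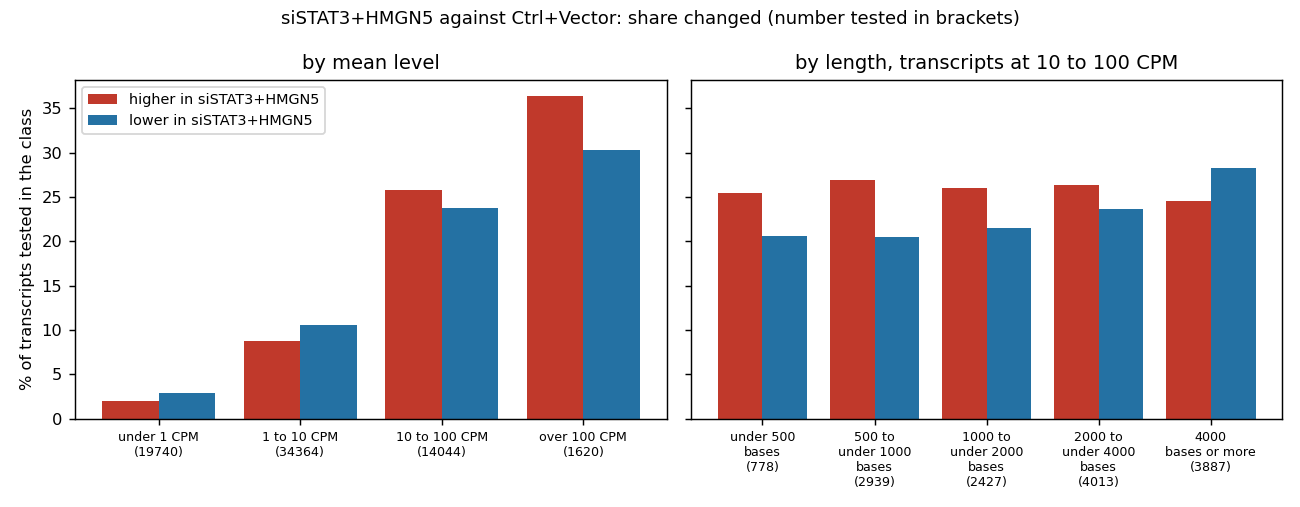
Share of tested transcripts called higher (red) and lower (blue) in siSTAT3+HMGN5 than in Ctrl+Vector, in percent of each class, by mean CPM over the 9 libraries (left) and by transcript length for those at 10 to 100 CPM (right). The share called rises with level, from 1.94% higher and 2.86% lower below 1 CPM to 36.4% and 30.3% over 100 CPM, and the longest class alone among lengths has more lower than higher calls.

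**Figure D3:**
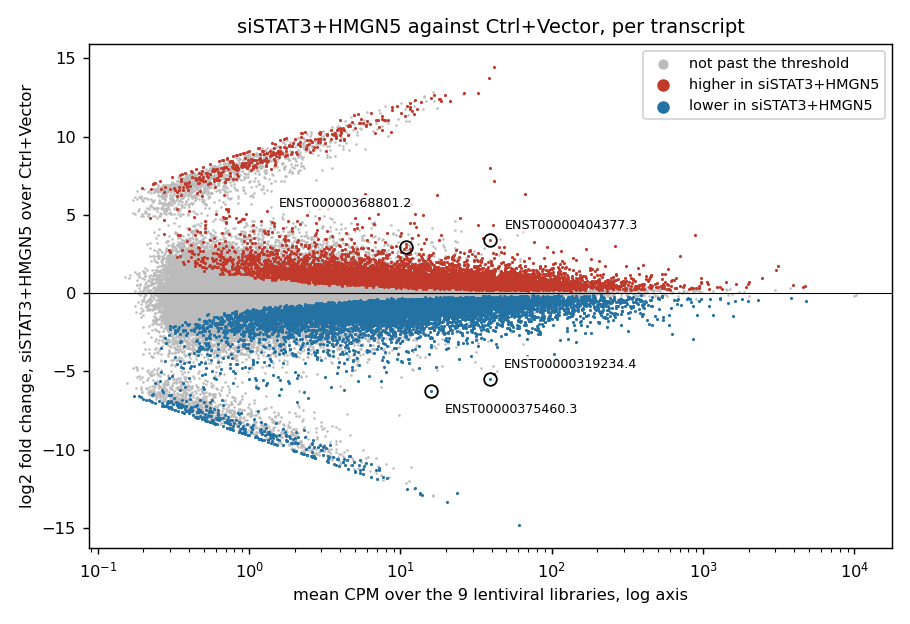
Log2 fold change of siSTAT3+HMGN5 over Ctrl+Vector for each of 69768 transcripts against mean CPM on a log axis; red points were called higher, blue points lower and grey points did not pass, and the 4 named transcripts are circled. The 2 outer arms are transcripts at 0 reads in every library of 1 group, whose fitted fold depends on the prior count.

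Many of the most extreme fold changes came from transcripts with no reads in 1 of the groups. At least an 8-fold fitted change was called for 496 higher transcripts (0.711%) and 661 lower ones (0.947%). Of these, 339 (68.3%) had 0 reads in all 3 Ctrl+Vector libraries and 352 (53.3%) had 0 reads in all 3 siSTAT3+HMGN5 libraries. Without them 157 higher and 309 lower transcripts remained at 8-fold, and 601 higher and 1130 lower at 4-fold. Some were abundant where present: 69 transcripts at 0 reads in Ctrl+Vector reached a mean of at least 10 CPM in siSTAT3+HMGN5, up to 124.2 CPM, and 54 at 0 reads in siSTAT3+HMGN5 reached it in Ctrl+Vector, up to 161.7 CPM. Of these 42 and 31 passed the test. Among transcripts averaging 10 CPM or more over the 9 libraries 51.3% did, a limit unlike the 1 used here, which asks for 10 CPM in 1 group. None of the 69 or the 54 had unshared reads, meaning estimates that differ from whole numbers by at most 0.0015 in each of the 9 libraries, a class that is rare throughout (479 of the 69768 tested). For estimates of shared reads, a gain or loss of the transcript and a different division of the reads between transcripts cannot be told apart here.

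Transcripts with unshared reads give the values least touched by that division. Of 479 tested, 93 were higher (19.4%) and 133 lower (27.8%), against 10.8% and 11.3% of the 69289 with shared reads. At 10 to 100 CPM, 34.9% of 146 unshared transcripts were higher and 36.3% lower, against 25.7% and 23.6% of 13898 shared ones. The difference between the classes was not tested. Fitted alone, with library scaling, spread and adjustment all taken from this class, 155 (32.5%) and 160 (33.5%) of 477 transcripts were higher and lower. The scaling differs between the fits: the median log2 fold change of the class was -0.163 in the fit of all and -0.0218 when fitted alone. Of 179 unshared transcripts with at least 10 CPM in siSTAT3+HMGN5 or Ctrl+Vector, 129 passed the test in the fit of all transcripts with no overlap between the libraries. The share of all transcripts within these limits was not counted. Of those averaging 10 CPM or more over the 9 libraries, 51.3% passed the test, without a limit on overlap. The 129 therefore serve for naming and are not read as a trait of the class. They were split into 62 higher, with a median log2 fold change of 0.62, and 67 lower, with a median of -0.99. A change of at least 4-fold was seen in 4 of the 62 and in 19 of the 67, and of at least 8-fold in 1 and 8. Among these 129, the 2 that rose most and the 2 that fell most are described by ID.

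ENST00000404377.3, a transcript of 2008 bases, showed the largest rise. It had 59.4, 53.1 and 63 CPM in siSTAT3+HMGN5 replicates 1, 2 and 3, against 4.95, 5.43 and 6.21 CPM in the Ctrl+Vector replicates. Every siSTAT3+HMGN5 library stood far above every Ctrl+Vector library. The means were 58.5 ± 5.02 and 5.53 ± 0.634 CPM (SD, n = 3 each), a 10.6-fold rise with a log2 fold change of 3.40 ± 0.11 (SE, edgeR adjusted p = 2.32e-06). Per length it lay at 17.2 ± 1.84 TPM in siSTAT3+HMGN5 and 1.64 ± 0.262 TPM in Ctrl+Vector. The siSTAT3+Vector libraries, at 53.9, 51 and 54.7 CPM, lay beside those with HMGN5. The log2 fold change of siSTAT3+HMGN5 over siSTAT3+Vector was 0.14 ± 0.10 (edgeR adjusted p = 0.604), and that of siSTAT3+Vector over Ctrl+Vector was 3.26 ± 0.11 (edgeR adjusted p = 6.97e-06).

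ENST00000368801.2, of 9623 bases, rose in a graded way. It had 18.9, 18.3 and 21.8 CPM in siSTAT3+HMGN5 and 2.2, 2.58 and 2.71 CPM in Ctrl+Vector. Again the groups did not overlap, which was a condition for naming a transcript. The means were 19.7 ± 1.86 and 2.5 ± 0.263 CPM (SD, n = 3 each), 7.87-fold higher with a log2 fold change of 2.98 ± 0.20 (SE, edgeR adjusted p = 4.45e-05). Because the transcript is long, its level per length was low, 1.07 ± 0.141 TPM in siSTAT3+HMGN5 and 0.137 ± 0.0217 TPM in Ctrl+Vector. The siSTAT3+Vector libraries lay between, at 12.4, 10.51 and 7.82 CPM. The log2 fold change was 0.94 ± 0.18 for siSTAT3+HMGN5 over siSTAT3+Vector (edgeR adjusted p = 0.0334) and 2.03 ± 0.19 for siSTAT3+Vector over Ctrl+Vector (edgeR adjusted p = 0.000401).

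ENST00000375460.3, of 3189 bases, showed the largest fall and was almost lost. It had 0.715, 0.57 and 0.438 CPM in siSTAT3+HMGN5, from 16, 13 and 10 reads, against 48.4, 41.8 and 42.4 CPM in Ctrl+Vector, from 1055, 955 and 956 reads. All 3 siSTAT3+HMGN5 values were under 1 CPM and above the level of 3 reads. The means were 0.574 ± 0.139 and 44.2 ± 3.65 CPM (SD, n = 3 each), 76.3-fold lower with a log2 fold change of -6.25 ± 0.22 (SE, edgeR adjusted p = 3.92e-06). The siSTAT3+Vector libraries, at 3.22, 2.38 and 2.55 CPM, were low as well but overlapped neither group. The log2 fold change of siSTAT3+HMGN5 over siSTAT3+Vector was -2.23 ± 0.20 (edgeR adjusted p = 0.00194), and that of siSTAT3+Vector over Ctrl+Vector was -4.02 ± 0.20 (edgeR adjusted p = 2.59e-05).

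ENST00000319234.4, of 1971 bases, had the highest control level of the 4 per length, and lay at 0.73 ± 0.0787 TPM in siSTAT3+HMGN5 and 32.8 ± 0.937 TPM in Ctrl+Vector. In CPM it lay at 2.23, 2.5 and 2.58 in siSTAT3+HMGN5 and at 112.7, 106.6 and 107.5 in Ctrl+Vector. Both groups were tight and far apart. The means were 2.44 ± 0.182 and 109 ± 3.28 CPM (SD, n = 3 each), 44.6-fold lower with a log2 fold change of -5.48 ± 0.08 (SE, edgeR adjusted p = 5.33e-07). The siSTAT3+Vector libraries had 4.63, 5.17 and 4.87 CPM, above all 3 libraries with HMGN5. The log2 fold change was -1.002 ± 0.073 for siSTAT3+HMGN5 over siSTAT3+Vector (edgeR adjusted p = 0.00102) and -4.48 ± 0.08 for siSTAT3+Vector over Ctrl+Vector (edgeR adjusted p = 1.9e-06). In bulk RNA such values do not separate fewer cells with the transcript from less of it per cell.

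**Figure D4:**
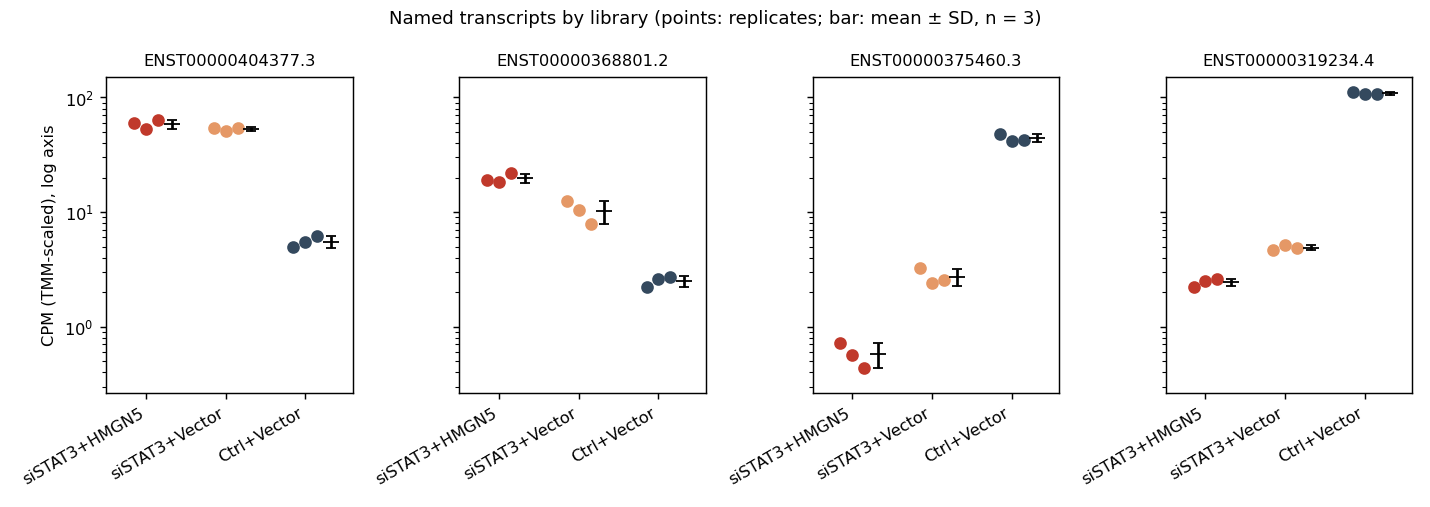
CPM on a log axis of the 4 named transcripts in each of the 3 libraries of siSTAT3+HMGN5 (red), siSTAT3+Vector (orange) and Ctrl+Vector (dark), with mean and SD beside the points (n = 3). In the 2 right panels siSTAT3+HMGN5 lies lowest, at 0.574 and 2.44 CPM on average, and in the 2 left panels it lies above Ctrl+Vector. No overlap between these groups was a condition for naming.

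Across the 3 comparisons of the lentiviral experiment, which share libraries, calls were most numerous for the net state. It had 15579 calls (22.3% of 69768), against 2631 (3.77%) for siSTAT3+HMGN5 over siSTAT3+Vector and 9953 (14.3%) for siSTAT3+Vector over Ctrl+Vector, where 5020 were higher (7.2%) and 4933 lower (7.07%). Median absolute log2 fold changes at 10 CPM or more were 0.50, 0.22 and 0.38 in that order. The second of these compares groups whose labels differ in the lentivirus, HMGN5 or control vector. The levels of HMGN5 and STAT3 in them were not checked. In this comparison 1062 transcripts were called higher (1.52%) and 1569 lower (2.25%). Its total of 2631 depended on the method, with 8084 calls in DESeq2 and 1627 in edgeR without a filter on low counts. For the 62 unshared transcripts that were higher in the net state, the median log2 fold change was 0.19 for siSTAT3+HMGN5 over siSTAT3+Vector and 0.52 for siSTAT3+Vector over Ctrl+Vector. For the 67 lower ones these medians were -0.39 and -0.64. The medians of all transcripts tested were -0.0059 and 0.017. The net fold change is the sum of those of the steps, and these transcripts were chosen on it, so the signs of these medians are a description and no test.

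**Figure D5:**
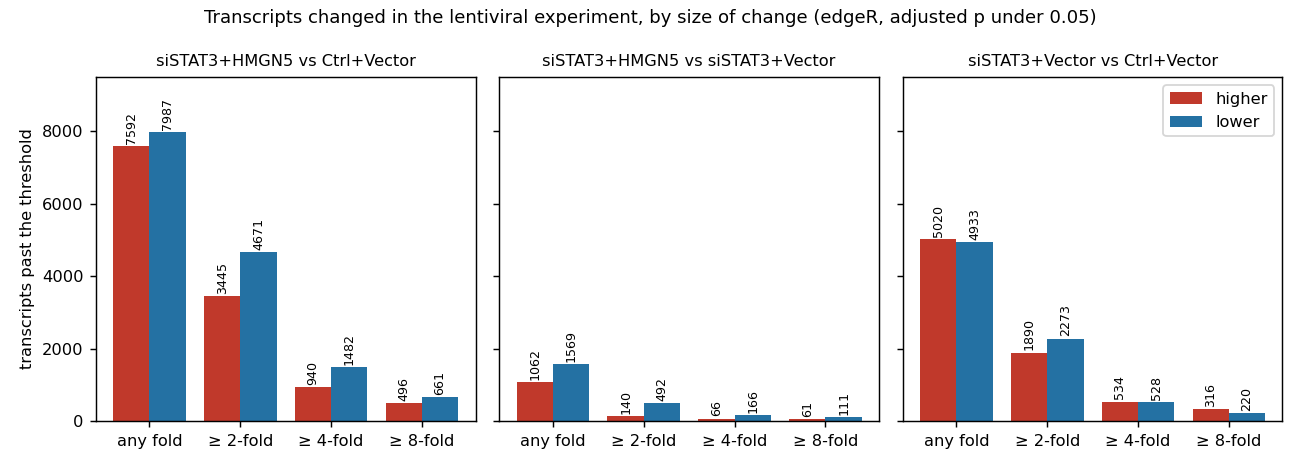
Number of transcripts past the threshold (vertical axis) by size of change (horizontal axis), higher in red and lower in blue, for siSTAT3+HMGN5 against Ctrl+Vector, siSTAT3+HMGN5 against siSTAT3+Vector and siSTAT3+Vector against Ctrl+Vector. The net comparison has 7592 higher and 7987 lower calls, and its 4-fold calls are 940 and 1482.

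The cells without virus give a comparison with no library in common, though the 4 Ctrl libraries there fall into 2 pairs that stand apart (replicates 1 and 2, replicates 3 and 4). The labels do not say what sets the pairs apart, and whether Ctrl replicates 3 and 4 are labelled correctly is not known, which touches every value set against Ctrl. Of 63969 transcripts tested in both, 7385 were higher and 7811 lower in siSTAT3+HMGN5 than in Ctrl+Vector. Of the 7385, 405 (5.48%) were also higher in siSTAT3 than in Ctrl and 230 (3.11%) lower, where 1.52% and 3.32% of all transcripts had such calls. Of the 7811, 945 (12.1%) were also lower and 111 (1.42%) higher. Taken from the other side, 41.5% of the 975 transcripts higher in siSTAT3 were also higher in the net comparison, and 111 were lower. Of the 2124 lower in siSTAT3, 44.5% were also lower in the net comparison and 230 were higher. These shares are within the 63969, of which 7385 were higher and 7811 lower in the net comparison. Of all 69768 transcripts tested, 10.9% were higher and 11.4% lower. Against Ctrl replicates 1 and 2 alone, 12.1% of the 7385 were also higher and 4.59% lower in siSTAT3, and 20.1% of the 7811 were also lower and 3.19% higher, where 3.14% of all transcripts were higher and 4.95% lower. Against Ctrl replicates 3 and 4 alone, 10.7% of the 7385 were higher and 10.3% lower, and 18.5% of the 7811 were lower and 10.4% higher, where 4.8% of all were higher and 6.37% lower. Both shares of the 7385 lay above those of all transcripts, with the larger excess among higher calls. Net calls were more frequent among abundant transcripts, and no share here was matched for level.

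With siRNA against HMGN5, the gene that the lentivirus carries, the calls shared with the net state ran both ways. Of the 7385 higher transcripts 181 (2.45%) rose and 348 (4.71%) fell in siHMGN5 relative to Ctrl, where 1.06% and 2.79% of all transcripts had such calls. Of the 7811 lower ones 586 (7.5%) were lower and 147 (1.88%) higher. Against Ctrl replicates 1 and 2 alone these shares were 5.88%, 6.91%, 13.9% and 3.29% in the same order, where 2.11% of all transcripts were higher and 4.25% lower. Against Ctrl replicates 3 and 4 alone they were 6.62%, 15.4%, 15% and 13.7%, where 4.94% of all were higher and 6.74% lower. STAT3 siRNA is part of the net state, so these counts do not isolate HMGN5. The shares were not matched for level either.

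With all 4 Ctrl libraries, ENST00000319234.4 was the only 1 of the 4 named transcripts called for STAT3 siRNA without virus. It lay at 8.35 and 7.32 CPM in siSTAT3 and 62.6, 62.5, 32.6 and 31.7 CPM in Ctrl (log2 fold change -2.60 ± 0.39, edgeR adjusted p = 0.0178). In siHMGN5 it lay at 13.4 and 16 CPM, a log2 fold change against Ctrl of -1.69 ± 0.37 (edgeR adjusted p = 0.0666). Against Ctrl replicates 1 and 2 alone this was -2.09 (edgeR adjusted p = 0.00171), and against Ctrl replicates 3 and 4 alone -1.13 (edgeR adjusted p = 0.00468). It thus passed against each pair but not against all 4. With the pairs fitted as separate groups, the difference between them does not count as spread. All p-values against a single pair in this paragraph leave that difference out. ENST00000368801.2 had 6.38 and 7.97 CPM in siSTAT3 and 6.3, 5.58, 7.59 and 8.44 CPM in Ctrl, groups that overlap (edgeR adjusted p = 0.974). In siHMGN5 it lay at 2.77 and 3.24 CPM, under every Ctrl library and so opposite in direction to the net change. Its log2 fold change there was -1.22 against all 4 Ctrl libraries (edgeR adjusted p = 0.064), -0.98 against replicates 1 and 2 (edgeR adjusted p = 0.068) and -1.41 against replicates 3 and 4, where it passed (edgeR adjusted p = 0.016). For Ctrl replicates 3 and 4 over replicates 1 and 2, each of the 4 had a log2 fold change with the sign of its net change. It was -0.96 for ENST00000319234.4 (edgeR adjusted p = 0.0147) and 0.43 for ENST00000368801.2 (edgeR adjusted p = 0.401). The control pairs differed most widely for ENST00000375460.3, at -4.05 (edgeR adjusted p = 0.00273), and ENST00000404377.3, at 7.26 (edgeR adjusted p = 0.005). ENST00000375460.3 had 16.5 and 18.6 CPM in siSTAT3, against 11 and 11.9 CPM in Ctrl replicates 1 and 2 and 0.738 and 0.629 CPM in Ctrl replicates 3 and 4. ENST00000404377.3 had 0.797 and 1.12 CPM in siSTAT3, against 0.203 and 0.574 CPM in Ctrl replicates 1 and 2 and 67 and 53.4 CPM in Ctrl replicates 3 and 4. Against Ctrl replicates 3 and 4 alone, siSTAT3 had log2 fold changes of 4.67 for ENST00000375460.3 (edgeR adjusted p = 0.000599) and -5.96 for ENST00000404377.3 (edgeR adjusted p = 0.00235), each opposite to the net change. Against Ctrl replicates 1 and 2 alone they were 0.61 and 1.30 and did not pass (edgeR adjusted p = 0.127 and 0.206). The siHMGN5 libraries had 6.99 and 8.69 CPM of ENST00000375460.3 and 0.252 and 0.206 CPM of ENST00000404377.3. Against Ctrl replicates 3 and 4 alone their log2 fold changes were 3.51 (edgeR adjusted p = 0.00102) and -8 (edgeR adjusted p = 0.00154), again opposite to the net change, and against Ctrl replicates 1 and 2 they were -0.55 and -0.74 and did not pass (edgeR adjusted p = 0.188 and 0.545). For ENST00000404377.3 the uninfected control libraries thus span a wider range than that between siSTAT3+HMGN5 and Ctrl+Vector.

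The difference between the Ctrl pairs was therefore set beside the net state for all transcripts. Of the 1411 transcripts higher in Ctrl replicates 3 and 4 than in Ctrl replicates 1 and 2, 585 (41.5%) were also higher in siSTAT3+HMGN5 than in Ctrl+Vector and 258 were lower. Of the 1761 lower ones, 917 (52.1%) were also lower and 190 higher. These shares are within the 63969 transcripts tested in both, of which 7385 were higher and 7811 lower in the net state. Of all 69768 transcripts tested, 10.9% were higher and 11.4% lower. Those called the same way made up 7.92% of the 7385 higher and 11.7% of the 7811 lower transcripts of the net state. Those called the opposite way made up 2.57% of the 7385 and 3.3% of the 7811. Between the control pairs, 2.21% of the 63969 transcripts tested in both were higher and 2.75% lower. Opposite calls thus lay above this background among the 7811 (3.3% against 2.21%) and below it among the 7385 (2.57% against 2.75%). None of these shares was matched for level. The libraries of the net comparison carry a vector and those of the pairs do not, and whether what separates the Ctrl pairs had a part in the net difference was not tested.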

How the data were processed

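Each deposited table lists 175775 transcripts. Per the file headers, the authors gave estimated counts of reads (expected counts, not whole) and TPM, scaled per effective length. Salmon 1.4.0 is among the tools in the submitters' processing notes. The release of the transcript set is not given in these sources. A model divides reads that several transcripts share. No source pairs transcripts with genes, so tests ran per transcript, and the planned gene lists and markers were not used. Counts were rounded and the 9 lentiviral libraries (22500086 to 23047081 reads) fitted with edgeR 4.0.16 (TMM, filterByExpr, quasi-likelihood test on group means, R 4.3.3), Benjamini-Hochberg adjusted over 69768 transcripts at 0.05. SE is the log2 fold change over the square root of F. The 8 libraries without virus were fitted apart, also with the Ctrl pairs as separate groups, a choice made after earlier results were seen. With separate pairs, the difference between them does not count as spread. Named were the 2 largest rises and 2 largest falls with unshared reads (within 0.0015 of whole numbers in the 9 libraries), at least 10 CPM in the higher group and no overlap. Members, lists and rules were chosen with earlier results of these data known. Replicate numbers were not taken to pair the libraries. Alternatives used DESeq2 1.42.0 and limma 3.58.1; recovery was tested on simulated data.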

Additional observations from a re-analysis of the deposited data

How the results depend on the processing

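The net counts of 7592 higher and 7987 lower transcripts stayed within 1.5 times under each alternative that tested all transcripts. DESeq2 gave 11131 and 11734, limma-voom 7841 and 8493, and no low-count filter 5835 and 6342. With transcripts of unshared reads only, 155 were higher and 160 lower, because 477 were tested. Leaving out 1 library of siSTAT3+HMGN5 or Ctrl+Vector gave 5641 to 6702 higher and 6293 to 6675 lower. The 2631 calls of siSTAT3+HMGN5 against siSTAT3+Vector became 8084 with DESeq2, 1627 without a filter and 1156 with a replicate block; the cause was not tested. With the replicate block, the net counts were 6056 and 6326. Numbers were not taken as pairs: same-numbered siSTAT3+HMGN5 and Ctrl+Vector libraries deviated together with r of 0.052, 0.0219 and 0.0127 (over transcripts). Not every library correlated best with its own number. Same-numbered siSTAT3+HMGN5 and siSTAT3+Vector libraries had r of -0.0598, -0.0466 and -0.0644. For siSTAT3+Vector and Ctrl+Vector the values were -0.0803, -0.0265 and -0.0887. The 4 named transcripts kept direction and call in all 13 alternatives, with adjusted p of at most 0.00118. They were chosen as called and most changed in these same libraries, so this outcome was largely set by the choice. Transcripts with the same call in the net comparison and against all 4 Ctrl libraries numbered 405 higher and 945 lower for siSTAT3 and 181 and 586 for siHMGN5. Against Ctrl replicates 1 and 2 alone, a choice made after seeing the data, they were 895, 1573, 434 and 1083, and against Ctrl replicates 3 and 4 alone 790, 1442, 489 and 1174. Below 1 CPM, 4.8% of transcripts passed, against 66.7% over 100 CPM; depth was not varied.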
